A study of Mus musculus with 12 samples.

Results

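The genes described here are 7 UDP-glycosyltransferases of the mouse Ugt1 and Ugt3 families, measured as RNA in bulk liver: Ugt1a1, Ugt1a5, Ugt1a6a, Ugt1a6b and Ugt1a9 of the Ugt1 locus, and Ugt3a1 and Ugt3a2. They were taken from the count table by gene symbol, 7 of the 56748 genes listed, and all 7 passed the low-count filter that left 14003 genes for testing. The 12 libraries came from 4 groups of 3 biological replicates: female and male mice of the 129/Sv-Cyp2e1tm1Gonz/J line (KO below), which carries a targeted Cyp2e1 allele, and female and male mice of the 129S1/SvImJ line (WT). All mice were 16 weeks old, ate normal chow and lived in shared cages. WT and KO are separate lines, so a KO comparison is also a comparison of lines. Levels are CPM, counts scaled to a common library size, and fold changes are log2 values ± SE. A gene is called where its p-value, adjusted over all genes tested, is under 0.05.

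UDP-glycosyltransferases sit in the membrane of the endoplasmic reticulum and join a sugar from a UDP-sugar donor to small fat-soluble molecules, which can then leave in bile or urine. The Ugt1 locus is built in an unusual way: a row of alternative first exons, each with its own promoter, is spliced to one common set of later exons. The first exon encodes the part of the enzyme that binds the acceptor molecule, and the common exons encode the part that binds UDP-glucuronic acid and the membrane anchor. Ugt1a1 conjugates bilirubin, the breakdown product of heme, and loss of its human counterpart causes inherited jaundice. The Ugt1a6 enzymes are known for conjugating small planar phenols, and Ugt1a9 for bulkier phenols. The human Ugt3 enzymes do not use UDP-glucuronic acid as their main donor: UGT3A1 uses UDP-N-acetylglucosamine, and UGT3A2 uses UDP-glucose and UDP-xylose.

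The build of the locus decides what a count of each gene can mean. On mm39, the build of the count table, the 5 Ugt1a genes start at different points of the plus strand of chromosome 1 and end together. Ugt1a9 (ENSMUSG00000090175) runs from 87998522 to 88146719, Ugt1a6b (ENSMUSG00000090145) from 88030974 to 88146725 and Ugt1a6a (ENSMUSG00000054545) from 88062531 to 88146719. Ugt1a5 (ENSMUSG00000089943) runs from 88093734 to 88146719 and Ugt1a1 (ENSMUSG00000089960) from 88139681 to 88146719. Ugt3a1 (ENSMUSG00000072664, 9276974 to 9315118) and Ugt3a2 (ENSMUSG00000049152, 9335636 to 9371041) lie side by side on the plus strand of chromosome 15. All 7 are annotated as protein-coding.

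In the GENCODE M21 transcripts (GRCm38), exon 1 of Ugt1a9 ends 143.4 kb before the common exon 2. That distance is 107.2 kb for Ugt1a6b, 75.7 kb for Ugt1a6a, 48.1 kb for Ugt1a5 and 2.2 kb for Ugt1a1. The joins below show where each gene's own sequence meets the common part: the last 30 bases of each exon 1 are in lower case, and the first 30 bases of exon 2, in capitals, are the same in all 5.
Ugt1a9: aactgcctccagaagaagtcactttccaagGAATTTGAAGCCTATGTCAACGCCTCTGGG
Ugt1a6b: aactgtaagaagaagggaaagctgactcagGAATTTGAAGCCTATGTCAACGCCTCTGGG
Ugt1a6a: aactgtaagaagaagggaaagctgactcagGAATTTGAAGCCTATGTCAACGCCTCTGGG
Ugt1a5: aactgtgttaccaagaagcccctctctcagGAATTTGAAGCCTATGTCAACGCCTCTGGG
Ugt1a1: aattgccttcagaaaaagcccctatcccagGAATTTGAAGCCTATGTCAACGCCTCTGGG

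**Figure D1:**
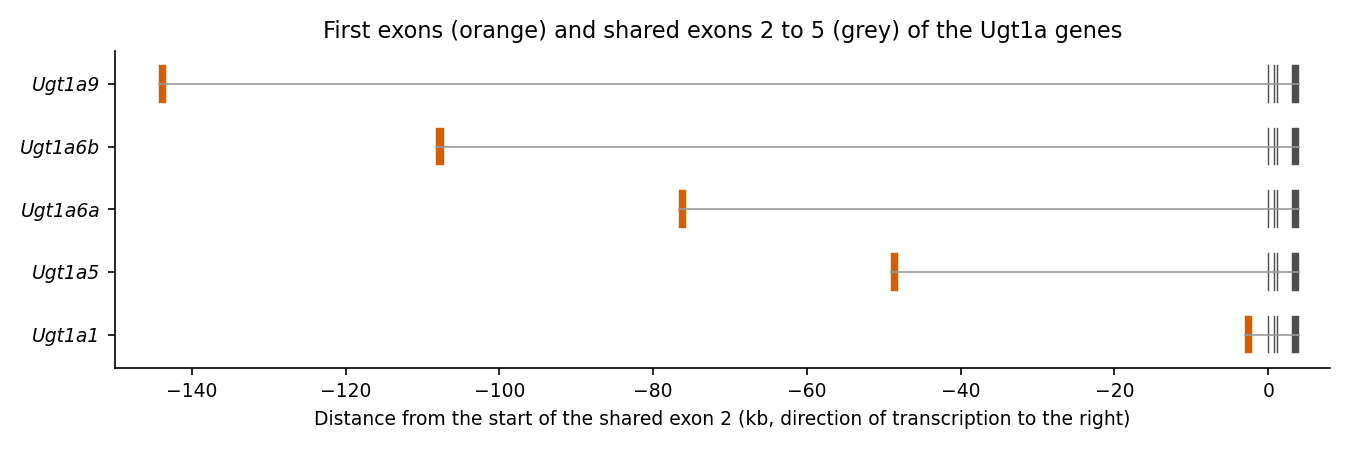
Exons of the 5 Ugt1a genes in the GENCODE M21 transcripts, drawn to scale against the distance in kb from the start of the common exon 2. First exons are orange and the common exons 2 to 5 grey; first exons end between 143.4 kb (Ugt1a9) and 2.2 kb (Ugt1a1) before exon 2.

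Ugt1a6a and Ugt1a6b cannot be told apart at this join. Their first exons are 94.9% identical, while every other pair of first exons among the 5 genes is 52.9% to 57.8% identical. How reads of these near-identical first exons were divided between Ugt1a6a and Ugt1a6b is not known here, so their separate values are uncertain. Of the 2142 bases that Ugt1a6a shares with no gene of its strand, most lie outside that exon. The common exons hold 1311 bases, and the bases that belong to a single gene of the strand make up 39.4% (Ugt1a6b) to 49.7% (Ugt1a6a) of the 5 Ugt1a genes. In addition, 859 of the 954 bases of exon 1 of Ugt1a6a lie in an exon of a Ugt1a7c transcript, and 528 of the 913 bases of exon 1 of Ugt1a1 lie under the antisense gene Gm20528, which had 0 counts in all libraries. The sources used here do not give the program that counted the reads, its strand option or its treatment of shared bases. Ugt1a2 and Ugt1a8 end in the same exons, yet had 10 and 9 counts over all 12 libraries against 45259 for the 5 genes, so shared reads were not counted to every gene that holds them. Ugt3a1 and Ugt3a2 share no annotated base with another gene, and their transcripts are 87.9% identical.

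Total counts ran from 15167730 to 25082532 per library, of which the 5 Ugt1a genes held 1606 to 7306. Cyp2e1, the targeted gene, stood at 6213 to 11480 CPM in WT libraries and at 230.2 to 403 CPM in KO libraries. All 6 hepatocyte markers were present in each group, with a sum of 64671 to 108384 CPM. In each group 3 or 4 of 6 markers of kidney and gut had 0 counts. Another marker of that list, Fabp2, had 34.7 to 153 CPM per library. It was called lower in KO than in WT females (-1.51, adjusted p = 0.0303). The libraries differed in how gene levels followed gene length. This length slope, the change in log2 CPM for each doubling of length, was -0.25 to -0.16 in WT females and 0.08 to 0.31 in KO females, and it overlapped between WT males (-0.17 to 0.12) and KO males (-0.17 to 0.19).

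Ugt3a2, Ugt1a9 and Ugt1a1 were the 3 most abundant members in every group. Per kilobase of bases that no other gene of the strand shares, Ugt3a2 in WT females had 134 ± 22.9 CPM (SD, n = 3), followed by Ugt1a9 (68.1 ± 24.6), Ugt1a1 (65.8 ± 11.2), Ugt1a5 (17.0 ± 7.50), Ugt3a1 (11.8 ± 3.83), Ugt1a6b (5.28 ± 1.58) and Ugt1a6a (2.21 ± 1.23). Of the neighbours in that order, Ugt1a9 and Ugt1a1 overlapped, as did Ugt1a5 and Ugt3a1. In WT males the order on the same scale was Ugt1a9 (132 ± 57.8), Ugt3a2 (93.2 ± 11.2), Ugt1a1 (46.3 ± 17.2), Ugt1a6b (15.3 ± 9.60), Ugt3a1 (6.04 ± 0.598), Ugt1a5 (3.22 ± 1.74) and Ugt1a6a (0.839 ± 0.393). There Ugt1a9 overlapped Ugt3a2, and Ugt1a6b overlapped Ugt3a1. KO females had Ugt3a2 (116 ± 12.4), Ugt1a1 (113 ± 47.8) and Ugt1a9 (96.0 ± 37.4) at overlapping levels, and KO males had Ugt1a9 (143 ± 38.0) ahead of Ugt3a2 (94.5 ± 13.4), again with overlap. Per kilobase of the whole deposited gene length, which counts the shared exons in full for each gene, Ugt3a2 came first in all 4 groups. The order by unshared bases assumes that reads under an antisense gene were counted, which is not known here. Of the 913 such bases of Ugt1a1, 385 lie clear of Gm20528. If only reads of those 385 were counted, its level on that scale would be higher and its place could change.

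**Figure D2:**
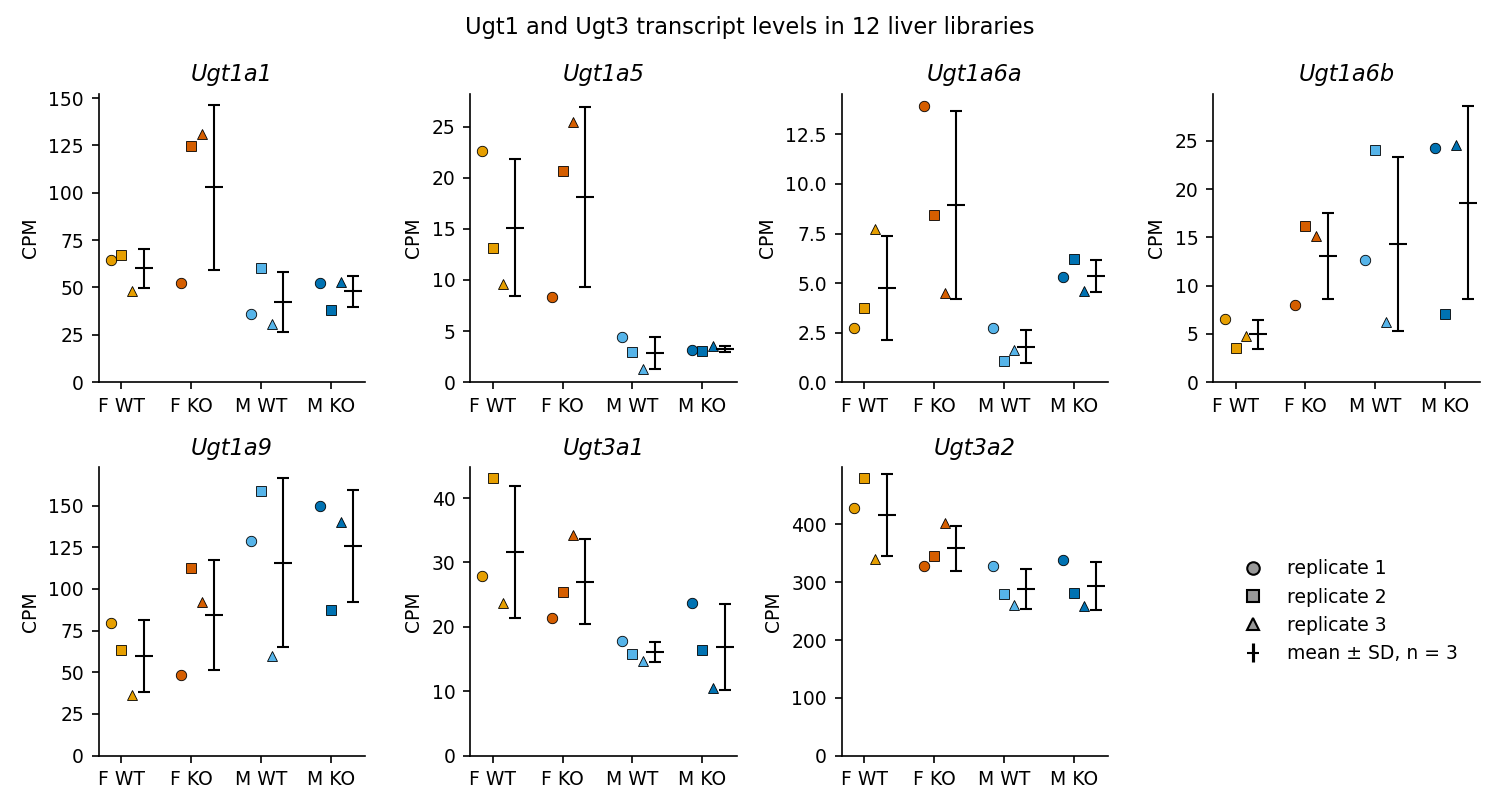
CPM of each gene in every library, by group (F and M for female and male), with the mean and SD of 3 libraries beside the points. The 6 female libraries of Ugt1a5 lie between 8.36 and 25.4 CPM and the 6 male libraries between 1.30 and 4.40 CPM.

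Male liver had less Ugt1a5 RNA than female liver in both lines. Ugt1a5, whose acceptors are less well known than those of Ugt1a1, stood at 22.6, 13.1 and 9.65 CPM in WT females and at 4.40, 2.91 and 1.30 CPM in WT males. KO females had 8.36, 20.7 and 25.4 CPM and KO males 3.18, 3.04 and 3.54 CPM. Every female library was above every male library. Males were 5.21-fold lower in WT (-2.38 ± 0.47, adjusted p = 0.00853) and 5.56-fold lower in KO (-2.47 ± 0.47, adjusted p = 0.00656). Ugt1a5 was the 1 member of 7 called in each line, where 4.49% of all genes tested were called in WT and 5.4% in KO. Both calls held in each of the 6 fits that left out 1 library, with log2 values from -2.86 to -1.97 in WT and from -2.82 to -2.15 in KO. They were -2.88 (adjusted p = 0.00152) and -2.03 (adjusted p = 0.0136) with the length slope in the model. Between the sexes of WT the summed markers of hepatocytes and of stellate cells also did not overlap. Hepatocyte markers summed to 79797 to 108384 CPM in females and 68310 to 76790 CPM in males. Of these 6 markers 1 was called higher and 1 lower in males. Stellate cell markers summed to 211 to 236 CPM in females and 130 to 158 CPM in males, with 1 of 6 called, lower in males. Most of the hepatocyte sum is Alb and most of the stellate cell sum is Dcn. Between the sexes of KO the stellate cell sums overlapped. There the female sums were higher, without overlap, for hepatocytes (93350 to 93852 against 64670.5 to 82155 CPM) and sinusoidal endothelium (169 to 219.9 against 112 to 166 CPM). The same held for Kupffer cells (155 to 181 against 106 to 130 CPM) and for lymphocytes and neutrophils (8.47 to 26.7 against 5.88 to 6.23 CPM). Cholangiocyte sums were lower in KO females (22.3 to 34.0 against 35.0 to 42.6 CPM). The part of these cells in the result was not tested. In bulk tissue, fewer cells of a type and less RNA per cell cannot be told apart.

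The remaining Ugt1a genes did not pass between the sexes, and they leaned both ways. Ugt1a9 had 79.5, 63.5 and 36.6 CPM in WT females and 129, 159 and 59.8 CPM in WT males (0.95 ± 0.40, adjusted p = 0.184). In KO it had 48.4, 113 and 92.0 CPM in females and 149.7, 87.5 and 140.0 CPM in males (0.58 ± 0.39, adjusted p = 0.397). The sexes overlapped in both lines. Ugt1a1 had 64.6, 67.3 and 48.4 CPM in WT females and 36.1, 60.2 and 30.6 CPM in WT males (-0.51 ± 0.33, adjusted p = 0.364). In KO its values were 52.6, 125 and 131 CPM in females and 52.6, 38.4 and 52.9 CPM in males (-1.10 ± 0.33, adjusted p = 0.0765). The KO males were below 2 of the 3 KO females and at the level of the other or below it. Ugt1a6b was 1.53 ± 0.52 in WT (adjusted p = 0.119) and 0.51 ± 0.49 in KO (adjusted p = 0.55), males against females, with overlap in both. Ugt1a6a was -1.37 ± 0.48 in WT (adjusted p = 0.129), where every male was below every female, and -0.73 ± 0.44 in KO (adjusted p = 0.338). The WT separation was very narrow: the lowest female had 2.74 CPM and the highest male 2.72 CPM, both from 58 counts. With the counts of Ugt1a6a and Ugt1a6b added, the WT value was 0.74 ± 0.38 (adjusted p = 0.274).

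The summed CPM of the 5 Ugt1a genes did not pass between the sexes either. It stood at 176, 151 and 107 CPM in WT females and at 185, 247 and 99.6 CPM in WT males (0.29 ± 0.35, adjusted p = 0.631). KO females had 131, 283 and 268 CPM and KO males 235, 142 and 226 CPM (-0.18 ± 0.35, adjusted p = 0.78). The sum and the shares below add counts without dividing by length. Bases that no other gene of the strand shares run from 879 (Ugt1a9) to 2142 (Ugt1a6a). The shares are therefore parts of the counts and not of the RNA molecules.

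The make-up of that sum parted the sexes without overlap. Ugt1a9 gave 45.2%, 41.9% and 34.2% of the 5-gene counts in WT females and 69.7%, 64.3% and 60.1% in WT males. KO females had 36.9%, 39.9% and 34.3% and KO males 63.7%, 61.6% and 62.1%. The lowest of the 6 male libraries, at 60.1%, was above the highest of the 6 female libraries, at 45.2%.

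Ugt1a1, the bilirubin enzyme, made up a larger part of the sum in females. Its share was 36.7%, 44.5% and 45.2% in WT females against 19.6%, 24.3% and 30.7% in WT males. In KO it was 40.1%, 44.1% and 48.9% in females against 22.4%, 27.0% and 23.4% in males. The male mean was 17.3 percentage points lower in WT (means 42.1% ± 4.70 and 24.9% ± 5.59) and 20.1 points lower in KO (44.4% ± 4.41 and 24.3% ± 2.41). Ugt1a5 held 6.37% to 12.8% in the 6 female and 1.18% to 2.39% in the 6 male libraries. Ugt1a6a and Ugt1a6b were minor in both sexes, and their ranges overlapped over both lines. Within WT the Ugt1a6b share did not overlap, at 2.36% to 4.44% in females and 6.29% to 9.73% in males (exact permutation p = 0.1).

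A two-sided exact permutation test gave p = 0.1 for Ugt1a9, Ugt1a1 and Ugt1a5 in each line, the smallest that this test can give for 3 against 3 libraries (0.222 when adjusted over 20 share tests). Between KO and WT the Ugt1a1 share differed by 2.22 points in females (exact p = 0.7) and by -0.60 points in males (exact p = 0.9), less than the SD among replicates. The KO and WT shares did not overlap for Ugt1a6b in females, at 3.50% ± 1.06 in WT and 5.82% ± 0.243 in KO, and for Ugt1a6a in males, at 1.17% ± 0.648 in WT and 2.89% ± 1.29 in KO. The exact p was 0.1 in both cases.

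**Figure D3:**
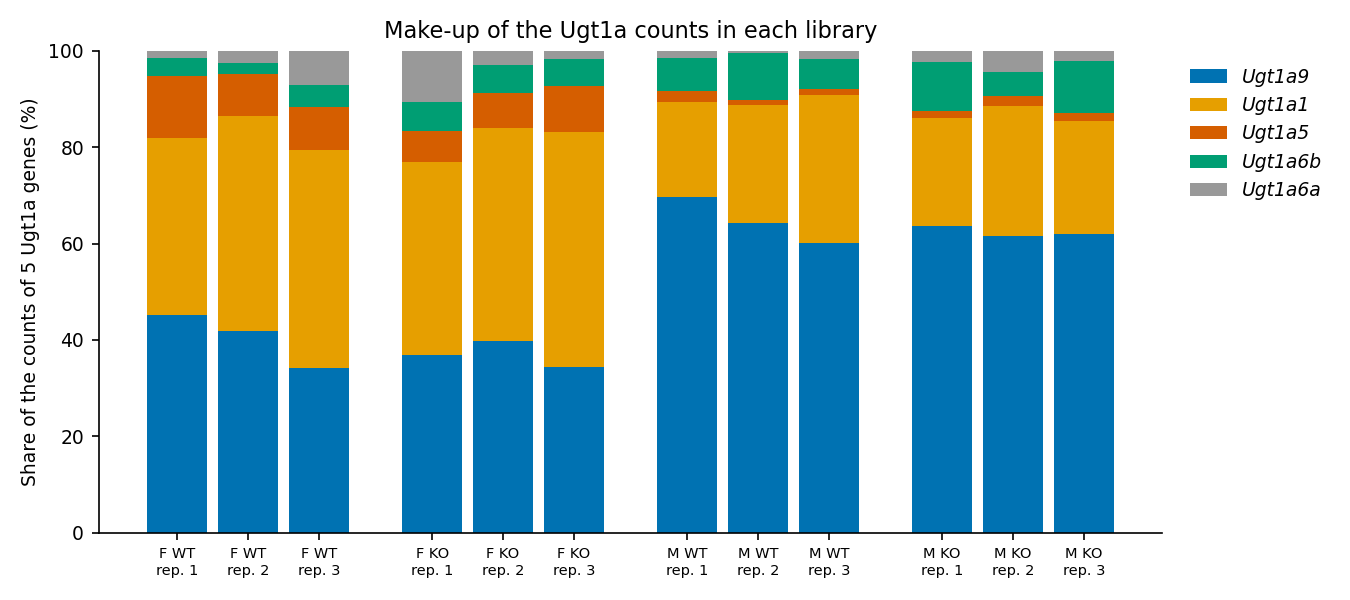
Share of each gene, in percent, in the summed counts of 5 Ugt1a genes for every library (F and M for female and male). Ugt1a9 fills 34.2% to 45.2% of each female bar and 60.1% to 69.7% of each male bar, in both lines.

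Because each first exon has its own promoter, the promoters of the 3 genes whose shares parted the sexes are shown, from 250 bases before to 50 bases after the annotated start in the RefSeq table (GRCm38.p6, plus strand, 5′ to 3′). Capitals mark the half-site GTTAAT, here read on the other strand as ATTAAC, of HNF1, a hepatocyte transcription factor.
Ugt1a9, chr1:88070529-88070828: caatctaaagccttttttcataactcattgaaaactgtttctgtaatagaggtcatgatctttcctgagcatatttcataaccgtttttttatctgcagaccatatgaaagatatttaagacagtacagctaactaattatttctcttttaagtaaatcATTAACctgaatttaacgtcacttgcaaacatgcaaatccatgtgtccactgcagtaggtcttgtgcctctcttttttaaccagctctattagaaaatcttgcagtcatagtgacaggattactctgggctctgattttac
Ugt1a5, chr1:88165762-88166061: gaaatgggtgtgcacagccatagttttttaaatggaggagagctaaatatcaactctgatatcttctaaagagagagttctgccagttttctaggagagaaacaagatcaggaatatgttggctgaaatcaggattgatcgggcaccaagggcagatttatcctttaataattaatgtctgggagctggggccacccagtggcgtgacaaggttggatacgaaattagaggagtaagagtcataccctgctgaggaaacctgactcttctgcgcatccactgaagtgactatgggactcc
Ugt1a1, chr1:88211709-88212008: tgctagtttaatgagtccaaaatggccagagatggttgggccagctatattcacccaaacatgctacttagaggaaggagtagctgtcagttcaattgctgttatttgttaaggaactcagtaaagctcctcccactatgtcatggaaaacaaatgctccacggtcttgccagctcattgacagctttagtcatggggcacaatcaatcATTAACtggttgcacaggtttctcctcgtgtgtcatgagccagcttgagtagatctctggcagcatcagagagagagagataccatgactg

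The half-site was found once in Ugt1a9 (position 160 of the window) and once in Ugt1a1 (position 210), and not in Ugt1a5. Over the 5 members with a promoter entry, 4 held it, Ugt1a6a and Ugt3a1 among them, against 7.1% of the 32851 promoters in the table. The xenobiotic response element core GCGTG, which the Ah receptor binds, was found in 1 of 5, Ugt1a5 (position 202), against 32.4% of all promoters. The STAT5 site TTCNNNGAA was found in 1 of 5, Ugt1a6a (position 130), against 8.3%. The antioxidant response element TGACNNNGC was found in 0 of 5, against 12.4%. Motifs were searched on both strands and do not contain each other. A match describes these letters only.

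Of the Ugt3 genes, 0 of 2 passed between the sexes in either line. Ugt3a1 stood at 27.9, 43.2 and 23.7 CPM in WT females and at 17.8, 15.8 and 14.7 CPM in WT males (-0.97 ± 0.30, adjusted p = 0.0924). Ugt3a2 stood at 429, 481 and 340.1 CPM in WT females and at 328, 279 and 260.3 CPM in WT males (-0.53 ± 0.18, adjusted p = 0.129). Every WT male was below every WT female in both genes, and neither passed. Together with Ugt1a5 and Ugt1a6a this made 4 of 7 members whose WT sexes did not overlap, while 26.9% of all genes tested did not overlap.

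In KO the sexes overlapped for both Ugt3 genes. Ugt3a1 had 21.3, 25.4 and 34.2 CPM in females and 23.7, 16.4 and 10.5 CPM in males (-0.68 ± 0.30, adjusted p = 0.204). Ugt3a2 had 328, 346 and 402 CPM in females and 339, 282 and 258 CPM in males (-0.29 ± 0.18, adjusted p = 0.358). Ugt1a5 was the 1 member of 7 without overlap in KO, against 28.1% of all genes tested. DESeq2 called more members between the sexes: Ugt1a5, Ugt1a6a, Ugt1a6b, Ugt3a1 and Ugt3a2 in WT, and Ugt1a5 and Ugt1a1 in KO. It also called more genes than edgeR over all genes in both lines, so the larger counts of members are not particular to them. Of 14003 genes edgeR called 629 in WT and 756 in KO, and the DESeq2 counts are given further down.

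**Figure D4:**
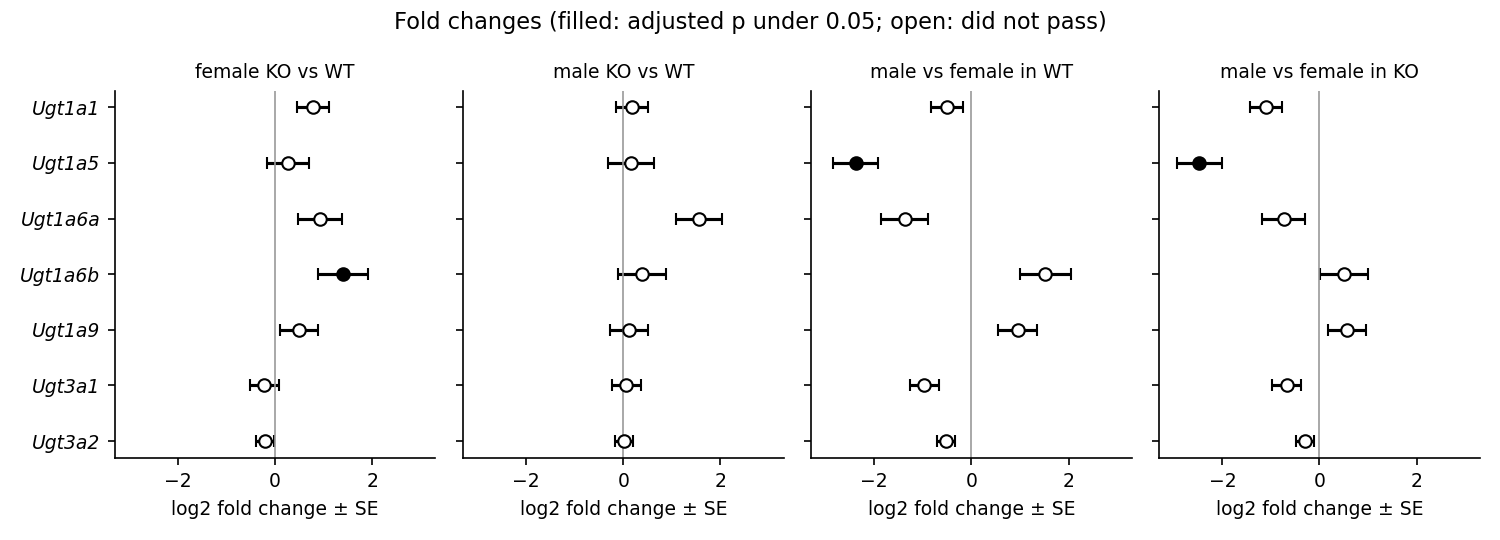
Log2 fold change ± SE of each gene in 4 comparisons, with filled points for an adjusted p under 0.05. Ugt1a5 is filled in both comparisons of the sexes (-2.38 and -2.47), Ugt1a6b in the female KO comparison (1.40), and no point in the male KO comparison.

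The KO comparison asks whether liver of the line with low RNA of Cyp2e1, a P450 enzyme that oxidises ethanol and other small molecules, holds other amounts of these conjugating enzymes. In females Ugt1a6b rose. It stood at 6.52, 3.57 and 4.76 CPM in WT and at 8.00, 16.2 and 15.1 CPM in KO, with every KO library above every WT library (1.40 ± 0.52, adjusted p = 0.0487). It was the 1 member of 7 called, in a comparison where 36.5% of all genes tested were called and 54.8% did not overlap. The call was lost in 5 of the 6 fits that left out 1 library (adjusted p from 0.0425 to 0.16) and held without KO replicate 1. Without WT replicate 2 or KO replicate 2 the comparison called 5 and 4 of all genes tested. With the length slope in the model the value was -0.93 ± 0.32 (adjusted p = 0.363). Within females the slopes of the lines did not overlap, so slope and line cannot be told apart there. With Ugt1a6a counts added it was 1.19 ± 0.38 (adjusted p = 0.0306).

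Other female Ugt1a values were above 0 and did not pass. They were 0.92 ± 0.45 for Ugt1a6a (adjusted p = 0.118), 0.77 ± 0.33 for Ugt1a1 (adjusted p = 0.0785), 0.50 ± 0.39 for Ugt1a9 (adjusted p = 0.329) and 0.26 ± 0.43 for Ugt1a5 (adjusted p = 0.65). In Ugt1a1, Ugt1a5 and Ugt1a9 KO replicate 1 lay within or below the WT range, and KO replicates 2 and 3 lay above most or all of it. With the length slope in the model Ugt1a1 was -0.33, Ugt1a5 -0.86 and Ugt1a9 -0.99. Ugt3a1 (-0.23 ± 0.30, adjusted p = 0.559) and Ugt3a2 (-0.22 ± 0.18, adjusted p = 0.363) had values slightly below 0. The median of the 7 members was 0.50, beside 0.05 over all genes tested.

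Female KO and WT livers also differed in markers of other cells. The summed CPM of 6 sinusoidal endothelium markers was 123 to 151 in WT and 169 to 219.9 in KO. That of 6 Kupffer cell and macrophage markers was 107 to 157 in WT and 155 to 181 in KO, with overlap. In each list 3 of 6 were called higher, where 17.7% of all genes tested were called higher. Clec4g (-0.40) and Clec4f (-0.08) of these lists had values below 0 and did not pass. The summed CPM of 5 cholangiocyte markers was 42.2 to 49.9 in WT and 22.3 to 34.0 in KO. Krt7 and Spp1 were called lower, where 18.8% of all genes tested were called lower, and Sox9 was called higher. Most of that sum is Spp1. The summed CPM of 5 lymphocyte and neutrophil markers was 5.76 to 8.43 in WT and 8.47 to 26.7 in KO. Of the 3 tested, Cd79a and Ighm were called higher, and S100a9 (-1.62) did not pass. The summed CPM of 6 stellate cell markers was 211 to 236 in WT and 192 to 232 in KO, with overlap. Of these, Reln and Pdgfrb were called higher and Dcn lower. Of 6 hepatocyte markers 0 were called. With the length slope in the model the called endothelium markers Stab1, Stab2 and Cdh5 were at 0.03, -0.15 and 0.27 and did not pass. The called Kupffer cell markers Cd5l, Marco and Csf1r were at 1.395, 2.73 and 0.94 and did not pass. Krt7, Spp1, Sox9, Cd79a, Ighm, Reln, Pdgfrb and Dcn did not pass in that model either. The part of these cells in the Ugt1a values was not tested.

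**Figure D5:**
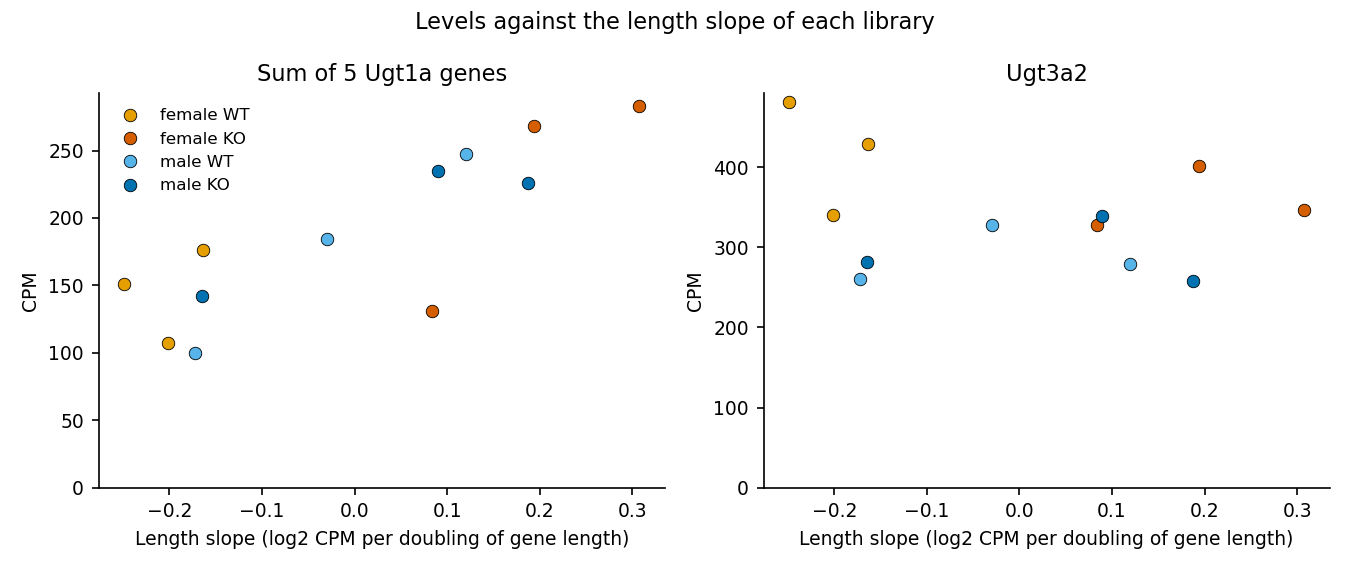
CPM of the 5 Ugt1a genes summed (left) and of Ugt3a2 (right) in each of 12 libraries, against the length slope of that library. The Ugt1a sum runs from 99.6 CPM (WT male replicate 3, slope -0.17) to 283 CPM (KO female replicate 2, slope 0.31), and the highest Ugt3a2 level, 481 CPM, is in the library with the lowest slope, -0.25.

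Among males, where the length slope did not part the lines, low Ugt1a9 and Ugt1a6b levels also went with low slopes. The male libraries with the lowest slopes were WT replicate 3 (-0.17) and KO replicate 2 (-0.17). These had the lowest Ugt1a9 levels of their groups, 59.8 and 87.5 CPM, and the lowest Ugt1a6b levels, 6.26 and 7.02 CPM. The other 4 males had 129 to 159 CPM of Ugt1a9 and 12.7 to 24.6 CPM of Ugt1a6b. Ugt1a6a differed from this: KO replicate 2 had the highest level of its group, 6.23 CPM, and WT replicate 2, with the highest WT slope (0.12), had the lowest, 1.06 CPM. Over all 12 libraries the points share the scaling of the library, and the groups make up part of the trend. The Ugt1a sum in females was 0.65 ± 0.35, KO against WT (adjusted p = 0.157), and -0.72 ± 0.35 with the slope in the model (adjusted p = 0.563). With the length trend removed instead, it was 1.045 ± 0.399 (adjusted p = 0.0606). These ways of taking length into account gave opposite directions, and no value passed.

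In males 0 of 7 members were called, where 0.0571% of all genes tested were called, and the members' median was 0.17, beside -0.0028 over all genes tested. DESeq2 called 0 as well. Ugt1a6a had the 1 unadjusted p under 0.05 by edgeR's quasi-likelihood test, 0.00611 (adjusted p = 0.758). It stood at 2.72, 1.06 and 1.61 CPM in WT and at 5.29, 6.23 and 4.61 CPM in KO, with every KO male above every WT male (1.56 ± 0.48). Of all genes tested, 9.62% did not overlap between these groups. The other 6 members overlapped. Ugt1a1 was at 0.18 ± 0.33, Ugt1a5 at 0.17 ± 0.47, Ugt1a6b at 0.38 ± 0.49, Ugt1a9 at 0.12 ± 0.39, Ugt3a1 at 0.07 ± 0.30 and Ugt3a2 at 0.02 ± 0.18, each with an adjusted p of 1.

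Taken as the mean of both sexes, Ugt1a6a rose in KO (1.24 ± 0.33, adjusted p = 0.0376). Females had 2.74, 3.76 and 7.72 CPM in WT and 13.9, 8.43 and 4.47 CPM in KO, which overlapped. Ugt1a6a was the 1 member of 7 called, where 15.1% of all genes tested were called. The call was lost in 8 of the 12 fits that left out 1 library (adjusted p from 0.0162 to 0.0916), and held without WT female replicate 3, KO female replicate 3, WT male replicate 2 or KO male replicate 2. With the length slope in the model the value was 1.68 ± 0.43 (adjusted p = 0.131). With Ugt1a6b counts added it was 0.88 ± 0.27 (adjusted p = 0.0465). Ugt1a6b alone was 0.89 ± 0.36 (adjusted p = 0.0864).

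The KO effect was not shown to differ between the sexes for any member. Of 7 members 0 were called, as were 0% of all genes tested, and 0 members had an unadjusted p under 0.05 by edgeR's quasi-likelihood test (3145 of all genes did). DESeq2 called 0 members. The widest difference was that of Ugt1a6b, where males minus females was -1.02 ± 0.71 (adjusted p = 0.374).

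Genes around these enzymes were read in 7 lists, of which 54 genes were tested. In females 9 rose and 14 fell in KO, while 17.7% of all genes tested rose and 18.8% fell. Of the 54, 0 were called with the length slope in the model, and 7 of the 23 turned sign. Slope and line cannot be told apart within females, which limits these values. Between WT sexes 4 were higher and 4 lower in males, while 2.1% of all genes tested were higher and 2.39% lower. All 8 held with the slope in the model. The other Ugt1a genes were nearly silent: Ugt1a10 had 1 to 39 counts in a library and Ugt1a7c 0 to 33, and neither was called in any comparison. Ugt1a2, Ugt1a8 and Ugt8a had too few counts to be tested.

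Of 7 genes that supply UDP-glucuronic acid, 2 rose and 3 fell in KO females. Ugdh, the enzyme that makes UDP-glucuronic acid, went from 137 ± 28.8 to 88.5 ± 3.68 CPM (-0.63 ± 0.17, adjusted p = 0.0181). In WT males Slc35d1, which carries UDP-glucuronic acid into the endoplasmic reticulum, was higher than in WT females, at 138 ± 14.9 against 63.7 ± 12.9 CPM (1.12 ± 0.23, adjusted p = 0.0124). Of 5 tested genes that supply UDP-N-acetylglucosamine, 0 rose and 1 fell in KO females, the transporter Slc35a3 (-0.66 ± 0.22, adjusted p = 0.0334).

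Of 11 genes of bilirubin formation, uptake and export, 3 rose and 5 fell in KO females. Blvrb, a biliverdin reductase, went from 266 ± 35.6 to 107 ± 19.2 CPM (-1.31 ± 0.26, adjusted p = 0.0139), and Gsta1, a glutathione S-transferase, from 0.907 to 0.143 CPM (-2.63 ± 0.49, adjusted p = 0.0139). The Gsta1 value rests on 47 counts over the WT females and 10 over the KO females, so depth limits it. Of the 3 uptake carriers in the list, Slco1b2 did not pass between WT sexes (-0.0068, adjusted p = 0.992), and the other two differed in opposite directions. Slco1a1 was higher in males (260.2 ± 80.0 against 785 ± 233 CPM, 1.59 ± 0.35, adjusted p = 0.0184) and Slco1a4 lower (141 ± 23.8 against 26.9 ± 3.58 CPM, -2.39 ± 0.26, adjusted p = 7.24e-05). Of 8 genes of glucuronate and ascorbate metabolism, 1 rose and 2 fell in KO females, the latter Akr1a1 (-0.60 ± 0.18, adjusted p = 0.023) and Rgn (-0.88 ± 0.26, adjusted p = 0.0233), which act on the way from glucuronate to ascorbate.

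Of 12 receptors and factors known to act on Ugt1 genes, 3 rose in KO females and 0 fell, and 0 were called between WT sexes. Rxra, the partner of several nuclear receptors, rose from 136 ± 22.1 to 450.3 ± 72.3 CPM (1.72 ± 0.43, adjusted p = 0.0146) and Ppara, the fatty acid receptor, from 15.4 ± 1.48 to 49.7 ± 26.2 CPM (1.69 ± 0.44, adjusted p = 0.0157). They were at -0.13 and -0.10 with the length slope in the model. The receptors Nr1i3 (-0.05, adjusted p = 0.891) and Ahr (-0.20, adjusted p = 0.521) did not pass. Of 9 marker genes of these factors, 0 rose and 3 fell in KO females, among them Nqo1 (-1.56 ± 0.24, adjusted p = 0.013) and Cyp1a1 (-1.31 ± 0.34, adjusted p = 0.0158). In KO males 2 rose, Cyp4a10 (2.78 ± 0.33, adjusted p = 0.00497) and Cyp4a14 (4.44 ± 0.55, adjusted p = 0.00654), both fatty acid hydroxylases. These 2 were lower in WT males than in WT females (-5.22 ± 0.36, adjusted p = 7.41e-07, and -7.96 ± 0.61, adjusted p = 2.07e-06).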

How the data were processed

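Poly(A) RNA of 12 mouse livers was sequenced, 3 libraries in each of 4 groups given by the labels. The authors deposited raw counts per gene with gene length and mm39 positions, and per the submitters' processing notes HISAT2 2.0.5, DESeq2 and mm39 were used, in roles that are not stated. Every column was matched to a sample by its library name. From the counts, edgeR 4.0.16 in R 4.3.3 (filterByExpr, TMM, 1 mean per group, all 12 libraries, quasi-likelihood F test) gave p-values, adjusted by the Benjamini-Hochberg method over 14003 genes. Each SE was derived from the fold change and its F statistic (the size of the log2 value divided by the root of F). The biological coefficient of variation was 25.9%. Replicates differed beyond sampling noise, with a chi-square over its degrees of freedom of 15.8 to 141. The method was tested on simulated data.

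The length slope was taken over 8949 protein-coding genes with a mean log2 CPM above 2. Shares were compared by exact permutation tests. Alternatives were DESeq2 1.42.0, other size factors, no filter, a replicate block, the 6 libraries of a contrast alone, the length slope as covariate, the length trend removed, other denominators for the shares, and 1 library left out. The summing of Ugt1a6a with Ugt1a6b and of the Ugt1a locus was chosen after seeing the data. The 7 genes and the lists were chosen with earlier results of these data known. All 7 genes are named. From the other lists up to 2 called genes of smallest adjusted p are named in the KO comparison of each sex and between WT sexes, and some that did not pass, and 1 gene that this rule takes is not reported here. Transcripts were read from GENCODE M21 (GRCm38). RefSeq promoters (GRCm38.p6) matched 5 of 7 genes by symbol, without an entry for Ugt1a6b and Ugt3a2.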

Additional observations from a re-analysis of the deposited data

How the results depend on the processing

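The sex difference of Ugt1a5 kept its direction and its call in both lines under every alternative run. The KO calls of Ugt1a6b in females and of Ugt1a6a as the mean of both sexes were lost under the replicate block and with the length slope in the model. Where no value is said to show it, the cause of a change was not tested.

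DESeq2 called 2 members in the mean of both sexes, 5 between WT sexes and 2 between KO sexes. Over all genes it called 34 in males, 3959 in the mean, 218 for the difference between the sexes, 1226 between WT sexes and 1395 between KO sexes. Without the low-count filter 3 members were called in females, 1 in males, 3 in the mean, 5 between WT sexes and 2 between KO sexes, and over all genes 101 in males, 3900 in the mean, 1451 for the difference, 1700 between WT sexes and 1694 between KO sexes. The fit to the 6 libraries of a contrast alone called 2 members in females (Ugt1a1 also, 0.77, adjusted p = 0.0417) and 1 gene in males. With the length trend removed 2 members were called in females, and Ugt3a1 was 0.019 in females and 0.075 in the mean, and Ugt3a2 0.010 in the mean. Of 14003 genes the main fit called 5116 in females, 8 in males and 2111 in the mean. It called 0 for the difference, 629 between WT sexes and 756 between KO sexes. Female counts over all genes in these alternatives, and the number tested without the filter, are not given here. Those counts of members therefore have no share of all genes beside them.

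With the length slope in the model 0 members were called in females, 0 in the mean, 2 between WT sexes (Ugt1a5, and Ugt1a1 at -1.03) and 3 between KO sexes (Ugt1a5, Ugt1a6b at 1.28 and Ugt1a9 at 1.18). Over all genes it called 9 in females, 15 in males, 22 in the mean and 3 for the difference. Its counts over all genes between the sexes are not given here. The main fit called 4.49% of all genes tested between WT sexes and 5.4% between KO sexes. The slopes of the female lines did not overlap, so this model cannot tell slope and line apart within females. In females Ugt1a1 was -0.33, Ugt1a5 -0.86, Ugt1a6b -0.93 and Ugt1a9 -0.99. In males Ugt1a5 was -0.013 and Ugt1a9 -0.040. In the mean Ugt1a1 was -0.14, Ugt1a5 -0.44, Ugt1a6b -0.46 and Ugt1a9 -0.51. For the difference, males minus females, Ugt1a1 was 0.39, Ugt1a5 0.85, Ugt1a6b 0.94 and Ugt1a9 0.95. With Ugt1a6a and Ugt1a6b added, the value listed for Ugt1a6a turned to -0.61 for the difference, 0.74 between WT sexes and 0.13 between KO sexes.

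Replicate numbers did not pair the samples: deviations of same-numbered libraries correlated at r from -0.61 to 0.28, with 3 of 18 pairs over 0.1. With the replicate block 0 members were called in females (Ugt1a6b 1.40, adjusted p = 0.0874) and 0 in the mean (Ugt1a6a 1.23, adjusted p = 0.0856). The block called 3365 genes in females, 23 in the mean and 415 between WT sexes.

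Leaving out 1 library at a time gave 0 to 2 members in females, 0 to 3 in the mean, 1 to 2 between WT sexes (2 without WT male replicate 3) and 1 to 2 between KO sexes (2 without KO female replicate 1). Over all genes it gave 4 to 4227 calls in females, 5 to 18 in males, 18 to 5594 in the mean, 0 to 2 for the difference, 379 to 781 between WT sexes and 440 to 953 between KO sexes. The Ugt1a1 share, KO minus WT, ran from -0.49 to 4.37 points in females and from -3.25 to 2.32 points in males. Log2 values that turned sign ran from -0.007 to 0.52 for Ugt1a1 in males, from -0.065 to 0.67 in females and -0.17 to 0.65 in males for Ugt1a5, and from -0.51 to 0.39 for its difference between the sexes. They ran from -0.20 to 0.41 for Ugt1a9 in males and from -0.10 to 0.14 for Ugt3a2 in males. For Ugt3a1 they ran from -0.44 to 0.061 in females, -0.27 to 0.32 in males, -0.25 to 0.062 in the mean and -0.042 to 0.54 for the difference. Ugt1a6b in females ran from 1.21 to 1.65 and Ugt1a6a in the mean from 1.00 to 1.51. Depth limits the values of a few CPM, such as Ugt1a5 in males (1.30 to 4.40 CPM) and Ugt1a6a (1.06 to 13.9 CPM).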

Other observations

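For each gene the most similar profiles were sought by the root-mean-square difference of log2 CPM over the 12 libraries, each gene centred on its mean, among genes with an average log2 CPM of at least 1 and an SD of at least 0.7 times that of the member. Nearest to Ugt1a5 were Cyp2c37, a cytochrome P450 (0.49), and Prlr, the prolactin receptor (0.54). Nearest to Ugt1a1 were Serpina6, which encodes corticosteroid-binding globulin (0.25), and Uroc1, urocanase of histidine breakdown (0.28). Ugt1a9 came closest to Usp9x, a deubiquitinase (0.21), and Gnas, a G protein subunit (0.22). For Ugt1a6b they were Mmp15, a membrane metalloproteinase (0.25), and Cux1, a transcription factor (0.26), and for Ugt1a6a Slc2a4rg-ps (0.30) and Fam193b (0.31). Ugt3a1 was nearest to Smc2 (0.25) and Abcb1b (0.27), and Ugt3a2 to Ctsb, a lysosomal protease (0.12), and Cyp4f14 (0.12). These profiles share the libraries, their scaling and their length slopes, so they are given as a description.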
